A study of Mus musculus with 27 samples.

Results

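Twist1, Twist2, Prrx1, Snai1, Snai2, Zeb1, Zeb2, Runx1 and Runx2 are transcription factors that set and keep mesenchymal identity. These 9 of the 22023 genes in the series were chosen by name, as factors with known roles in mesenchymal cells. Each of the 9 had a value in all 27 libraries and passed the expression filter in all 3 experiments. The cells were immortalized mouse embryonic fibroblasts (iMEFs) in which 4-hydroxytamoxifen (4OHT) removes Setdb1, a histone H3 lysine methyltransferase that silences retroelements and some genes. The line is a single clone, recloned from single cells, so the values describe that clone. RNA was sequenced after 4OHT alone. It was also sequenced after loss of the DNA methyltransferase Dnmt1 or block of MEK, the kinase above ERK, each with and without 4OHT. Histone deacetylases were blocked only in cells not given 4OHT.

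All groups shared the cell line and its conditional Setdb1 allele, and were bulk cultures. The total RNA experiment, made from RNA cleared of ribosomal RNA, had 3 libraries in each of 3 groups. These were untreated cells, cells kept for 4 days in 4OHT and collected on day 5, and a long-term knockout (KO) grown after the 4 days in 4OHT for more than 2 weeks by the labels, or more than 1 week by the methods of the study. The siRNA experiment had 2 libraries in each of 4 groups. Cells received a control siRNA (siCtrl) or an siRNA against Dnmt1 (siDnmt1), without 4OHT or with 4OHT added at day 0, and were collected at day 6. The inhibitor experiment had 2 libraries in each of 5 groups. These were untreated cells, 24 h in 150 nM trichostatin A (TSA, a histone deacetylase inhibitor), 24 h in 1 uM PD0325901 (a MEK inhibitor, also spelled PD0325091 in the labels), 4OHT with collection at day 6, and 4OHT with PD0325901 in the last 24 h before day 6. The depth implied by the intervals deposited with the values was 36.4 to 40.5 M (mega) fragments per total RNA library, 13.8 to 15.6 M per siRNA library and 10.9 to 12.7 M per inhibitor library. Values are FPKM (fragments of a gene scaled to its length and to the depth of the library), and changes are log2 fold changes of FPKM + 0.1 with their standard error (SE). A gene was called where limma's adjusted p was under 0.05 over all genes tested, 9018 in total RNA, 10684 in the siRNA experiment and 11427 in the inhibitor experiment. Because library preparation differed, levels were tested within experiments only, and correlations over all group means are descriptions.

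The 9 factors fall into 3 groups by role. Twist1, Twist2 and Prrx1 are bHLH and homeodomain proteins that specify limb, head and dermal mesenchyme and keep progenitors undifferentiated. Snai1, Snai2, Zeb1 and Zeb2 are zinc finger proteins that bind E-boxes and repress Cdh1 and other epithelial genes, the central step of the epithelial to mesenchymal transition. Runx1 and Runx2 are Runt domain proteins, with Runx2 the master factor of osteoblasts and Runx1 active in blood stem cells, cartilage progenitors and fibroblasts.

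The targeted genes were read in every library first. Gene-level Setdb1 was 5.95, 5.53 and 5.16 FPKM in untreated cells, 4.16, 4.20 and 6.52 at day 5 and 7.24, 7.32 and 6.96 in the long-term KO. In the siRNA experiment Setdb1 was 7.40 and 6.48 in siCtrl, 6.08 and 5.54 in siDnmt1, 7.58 and 5.00 in 4OHT + siCtrl and 5.40 and 6.94 in 4OHT + siDnmt1. In the inhibitor experiment it was 8.76 and 10.1 in untreated cells, 9.56 and 9.0 with TSA, 5.34 and 5.56 with PD0325901, 0 and 5.30 at day 6, and 0 in both libraries of 4OHT + PD0325901. Setdb1 thus overlapped its controls at day 5 and in both siRNA groups with 4OHT, and lay above them in the long-term KO. In the inhibitor experiment it was 0 in 3 of the 4 libraries given 4OHT and 5.30 to 10.1 in the 7 others, day 6 replicate 2 among these. Why the 4OHT libraries differ in this was not tested. Gene-level FPKM does not measure whether the allele was deleted, so these values do not grade the knockout. The study chose the clone by western blot for Setdb1 after 4OHT. It also reported that 4OHT reduced most of the H3K9me3, the mark made by Setdb1, on the retroelements it examined. In the long-term KO it reported less of this mark on a retroelement family. Dnmt1 was 80.5 and 73.4 FPKM in siCtrl, 12.2 and 10.6 in siDnmt1, 78.7 and 78.3 in 4OHT + siCtrl, and 12.2 and 11.4 in 4OHT + siDnmt1. All 4 siDnmt1 libraries lay below all 4 others, as their labels say. Dnmt1 had no value of its own in total RNA, and in the inhibitor experiment it was 81.1 and 86.4 in untreated cells, 64.2 and 59.8 with TSA, 61.7 and 59.0 with PD0325901, 75.2 and 74.1 at day 6 and 49.7 and 58.5 with 4OHT + PD0325901.

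The 4OHT labels were checked with 4 interferon response genes, Usp18, Irf7, Isg15 and Oasl2, which are known to respond when retroelements are derepressed. All 4 were called higher at day 5, in the long-term KO and at day 6. Usp18 and Irf7 were also called higher without 4OHT, with TSA (4.07 and 2.43) and with PD0325901 (2.21 and 1.58). These changes were smaller than those at day 6 (8.29 and 6.79), and Isg15 and Oasl2 were not called with either inhibitor. Usp18, an interferon-induced protease, was 0.171, 0.216 and 0.152 FPKM in untreated cells, 8.28, 8.07 and 7.05 at day 5 and 2.08, 1.86 and 2.09 in the long-term KO. In the inhibitor experiment Usp18 was 0.0452 and 0.299 in untreated cells and 48.9 and 116 at day 6. In the siRNA experiment, Usp18 was 7.25 and 8.62 in siCtrl, 136 and 4.10 in 4OHT + siCtrl, 30.3 and 31.7 in siDnmt1, and 216 and 186 in 4OHT + siDnmt1. The library labelled 4OHT + siCtrl replicate 2 therefore goes against its label in this gene, and its Irf7 (14.6 against 279 in replicate 1) lay below both siCtrl libraries (21.2 and 21.5). Its Oasl2 (32.5 against 306.5 in replicate 1) lay between the siCtrl libraries (18.4 and 45.1), and its Isg15 (147 against 937) above them (80.9 and 85.6), in the direction of its label. None of the 4 genes was called in 4OHT + siCtrl against siCtrl (0 of 4 in limma, 1 at an unadjusted p under 0.05), and all 4 were called higher without that library. Other genes of that library did follow its label. Pdgfra, a receptor for platelet-derived growth factor, was 22.9 and 21.5 FPKM in siCtrl and 2.79 and 2.00 in 4OHT + siCtrl, and Dcn, a matrix proteoglycan, was 49.4 and 49.2 against 1.40 and 1.39. Calls of the factors in that group are given below with and without the library.

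The PD0325901 labels were checked with 5 targets of ERK signalling (Dusp6, Spry4, Spry2, Etv4 and Etv5). All 5 were called lower with PD0325901, and Etv4, an ETS factor, was 13.8 and 15.3 FPKM in untreated cells against 0.103 and 0.0350. A header comment in the table of PD0325901 replicate 2 names a sample given 4OHT and PD0325901 instead. Its Usp18 was 1.23 FPKM, near the 0.835 of replicate 1 and far from the 133 and 123 of 4OHT + PD0325901, so the label of the series was kept. The same 5 were called lower with 4OHT + PD0325901 than at day 6 and, without any inhibitor, lower in the long-term KO than in untreated cells, where Etv4 was 17.2, 18.9 and 19.1 against 1.71, 1.74 and 1.55. Fibroblast and mesenchyme markers dominated every library. They summed to between 1286 and 1746 FPKM in total RNA, 1681 and 3673 in the siRNA experiment, and 2130 and 4459 in the inhibitor experiment, with the intermediate filament gene Vim the most abundant. Epithelial markers summed to 3.32 to 11 FPKM in total RNA, 8.53 to 159 in the siRNA experiment and 6.68 to 145 in the inhibitor experiment, led by Krt19. Haematopoietic markers summed to 0.0665 FPKM at most in total RNA, where Spi1 and Cd3e were at 0 and Cd68 had no value, so this sum lacks the most abundant gene of the list elsewhere. They summed to 2.89 to 8.74 in the siRNA experiment and 3.21 to 67.2 in the inhibitor experiment, where Cd68 reached 66.9 FPKM with TSA. Endothelial markers summed to 2.25 FPKM at most over all libraries and pluripotency markers to 2.24, and the highest single genes were Kdr at 1.88 and Nanog at 2.18. Neural markers summed to 82.4 at most, with Tubb3, which had a value in the siRNA experiment only, at 79.2 there. Fibroblast genes were thus the largest marker group in every library.

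Prrx1 was the most abundant of the 9 factors in untreated cells of all 3 experiments, with means of 35.6 FPKM in total RNA, 92.7 in siCtrl and 70.8 in the inhibitor experiment. By its mean over all libraries of each experiment, it stood at percentiles 86, 88.4 and 88 of the genes tested. Twist1 followed at 15.9, 49.3 and 41.3 FPKM. Twist2 was at 15.7, 34.0 and 25.5, within the spread of Twist1 in total RNA only. Zeb1 came next at 14.7, 19.8 and 18.3. The order below these 4 depended on the experiment. Runx2 was at 4.53 FPKM in total RNA, 11.7 in siCtrl and 13.2 in the inhibitor experiment, and Runx1 at 5.88, 4.49 and 7.56. Zeb2 was at 6.78, 4.27 and 5.05. Snai1 was at 2.09, 9.05 and 13.2 and Snai2 at 2.02, 8.95 and 11.3, so that both Snai genes were the lowest of the 9 in total RNA. By its mean over all total RNA libraries, Snai1 stood at percentile 10.5 of the genes tested. All 9 RNAs were present in untreated cells.

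The deposited intervals show how firmly each level was measured. Snai1, the least abundant, rested on 75.3 to 143 effective fragments in total RNA, where effective fragments are the squared ratio of a value to its error from those intervals. Zeb1 was the least certain in the other experiments: 4 libraries lay under 10 effective fragments, namely both siDnmt1 libraries, TSA replicate 1 and 4OHT + PD0325901 replicate 1, with 4.61 and 0.598 as the lowest of each experiment. Zeb2 fell under 10 in 1 library, at 9.34. Runx2 shares its locus with Supt3 (4.11 to 6.13 FPKM in total RNA), and since the strand is not stated, reads from the 2 genes cannot be fully told apart. In the coordinates of the deposited tables (mm9), Twist1 lies at chr12:34642536-34644696, Twist2 at chr1:93698038-93744611, Prrx1 at chr1:165175250-165243781, Snai1 at chr2:167363695-167368311 and Snai2 at chr16:14705952-14709475. Zeb1 lies at chr18:5591858-5775466, Zeb2 at chr2:44839032-44968799, Runx1 at chr16:92601711-92826319 and Runx2 at chr17:44632936-44951746.

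**Figure D1:**
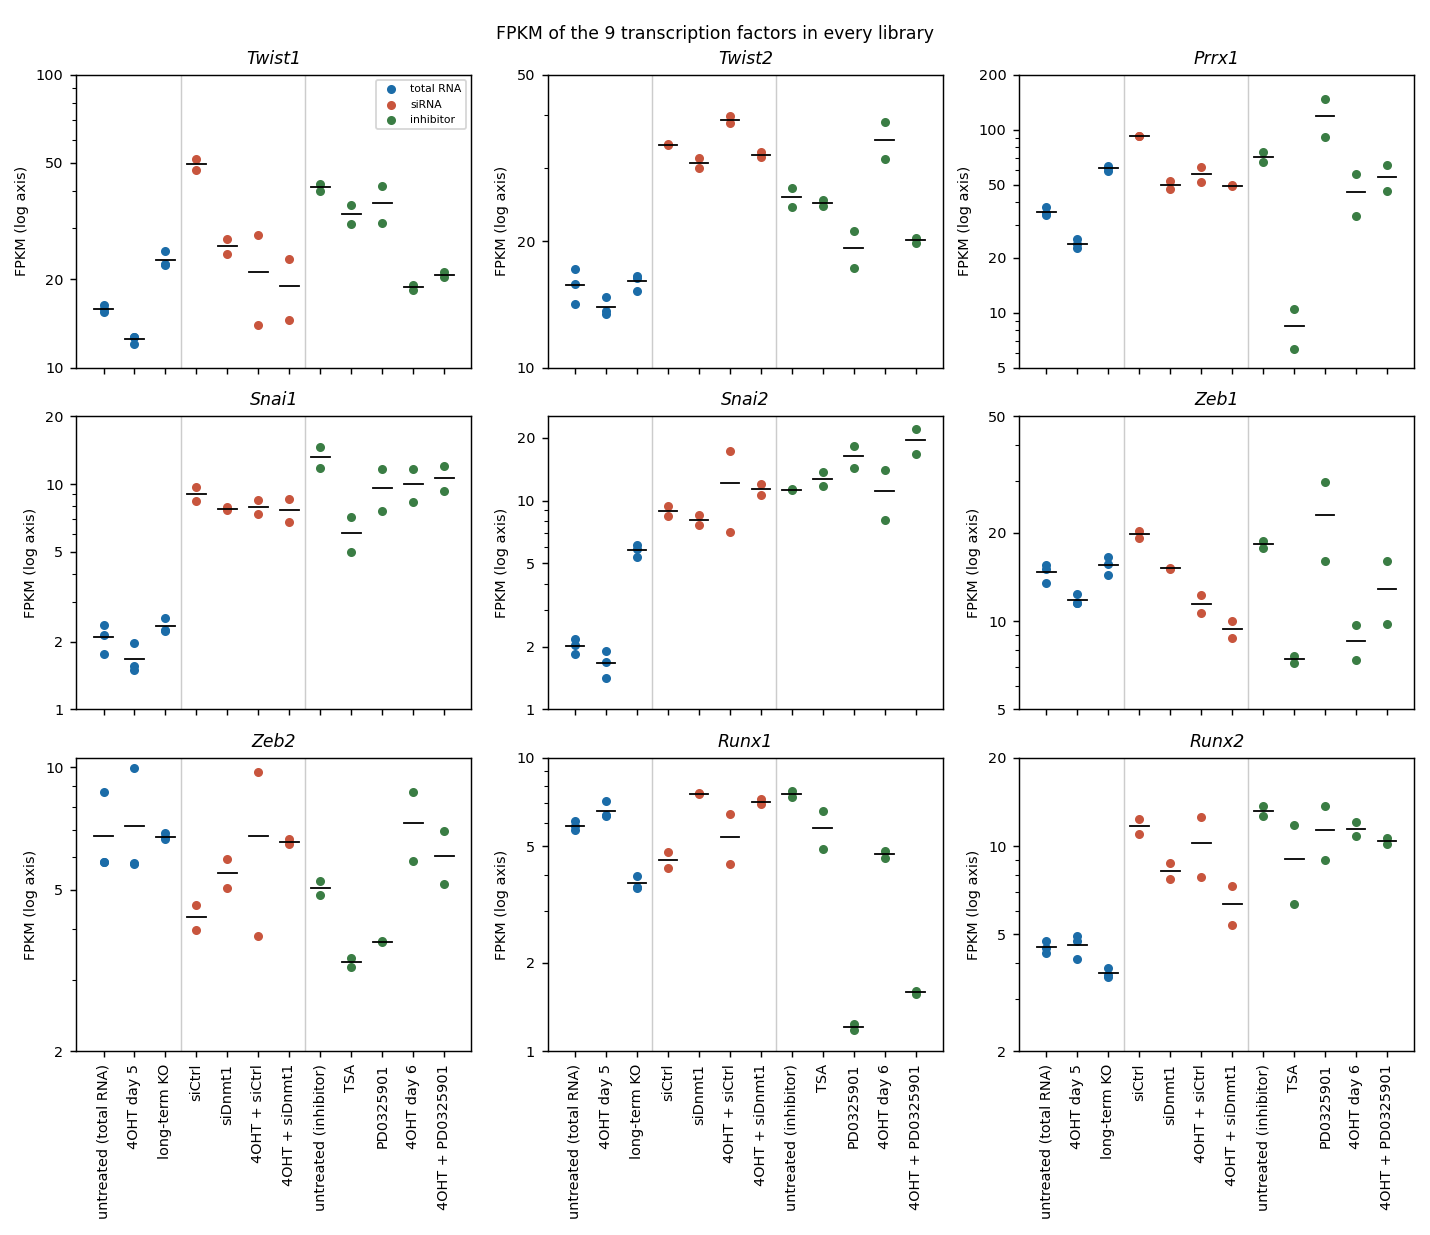
FPKM on a log axis (vertical) of each of the 9 factors in every group (horizontal); points are libraries and bars are group means. Prrx1 runs from 6.34 FPKM with TSA to 147 with PD0325901 and Runx1 from 1.18 to 7.74, whereas Twist2 stays between 13.4 and 39.7.

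The promoters of 4 factors are shown, those of Twist1, Prrx1 and Runx1 as examples of factors whose RNAs changed, and that of Snai1 because the factor is known to act on E-boxes like the one it holds. RefSeq promoters (300 bases in GRCm38.p6, from 250 before the start of transcription to 50 after it) could be matched to 7 of the 9 factors, all but Snai2 and Zeb1. Capital letters mark CAGGTG (the E-box bound by Snai and Zeb factors), TGTGGT (the Runx site), CCGGAA (the core of an ETS site) and TGANTCA (the AP-1 site), read on both strands, so that CACCTG counts for the E-box, ACCACA for the Runx site and TTCCGG for the ETS site. Twist1 at chr12:33957421-33957720 (+ strand) holds CCGGAA once, and Prrx1 at chr1:163313601-163313900 (- strand) holds none of the 4 motifs. Snai1 at chr2:167537945-167538244 (+ strand) holds CACCTG once. The distal Runx1 promoter at chr16:92826025-92826324 (- strand) holds CAGGTG once and ACCACA 2 times, and the proximal one at chr16:92697280-92697579 (- strand) holds CCGGAA once. Among those not shown, the Runx2 promoter holds the Runx site 3 times, 1 of the 4 Zeb2 promoters holds TGANTCA 2 times, and Twist2 holds none of the 4. Over all 32851 promoters, CAGGTG or CACCTG occurred in 20.2%, TGTGGT or ACCACA in 16.8%, CCGGAA or TTCCGG in 14.9% and TGANTCA in 7.81%, so a single match is common and binding was not measured.
Twist1: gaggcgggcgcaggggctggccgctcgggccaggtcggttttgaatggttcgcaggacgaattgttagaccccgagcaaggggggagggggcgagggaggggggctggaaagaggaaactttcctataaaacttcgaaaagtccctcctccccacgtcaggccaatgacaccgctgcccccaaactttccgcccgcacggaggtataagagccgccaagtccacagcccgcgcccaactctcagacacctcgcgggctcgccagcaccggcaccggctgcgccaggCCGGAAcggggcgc
Prrx1: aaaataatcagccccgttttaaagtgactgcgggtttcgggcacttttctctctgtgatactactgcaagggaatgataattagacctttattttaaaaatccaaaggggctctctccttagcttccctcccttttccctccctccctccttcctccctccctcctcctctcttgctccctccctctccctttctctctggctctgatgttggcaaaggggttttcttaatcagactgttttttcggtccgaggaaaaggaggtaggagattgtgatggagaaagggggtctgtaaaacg
Snai1: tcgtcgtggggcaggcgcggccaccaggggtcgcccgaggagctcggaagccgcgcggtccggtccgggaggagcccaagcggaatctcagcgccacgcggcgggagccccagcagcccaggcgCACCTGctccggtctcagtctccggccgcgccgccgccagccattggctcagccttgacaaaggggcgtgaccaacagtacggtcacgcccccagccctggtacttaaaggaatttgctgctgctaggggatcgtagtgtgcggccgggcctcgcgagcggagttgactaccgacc
Runx1 distal: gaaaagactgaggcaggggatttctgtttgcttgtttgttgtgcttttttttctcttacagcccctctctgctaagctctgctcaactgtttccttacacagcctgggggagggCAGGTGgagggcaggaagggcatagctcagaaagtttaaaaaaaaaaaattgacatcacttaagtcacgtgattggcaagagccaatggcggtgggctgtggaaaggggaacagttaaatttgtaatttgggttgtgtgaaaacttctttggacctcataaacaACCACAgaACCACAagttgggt
Runx1 proximal: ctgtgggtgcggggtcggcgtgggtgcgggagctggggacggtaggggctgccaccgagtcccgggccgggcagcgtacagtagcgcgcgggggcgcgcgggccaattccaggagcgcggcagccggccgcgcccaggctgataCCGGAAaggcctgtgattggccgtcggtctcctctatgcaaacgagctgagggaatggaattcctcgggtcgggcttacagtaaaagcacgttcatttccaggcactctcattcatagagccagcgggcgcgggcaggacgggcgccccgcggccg

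The first question was how the factors differ within days of 4OHT, which is given to remove Setdb1. At day 5 no factor was called higher, and the 3 that were called went down by modest amounts. Twist1, which holds mesenchymal progenitors undifferentiated, was 15.8, 15.5 and 16.3 FPKM in untreated cells and 12.7, 12.8 and 12.1 at day 5. All 3 treated libraries lay below all 3 controls. Twist1 fell by 0.34 log2 units (SE 0.05, limma adjusted p 0.00154, 3 of 3 libraries lower). Prrx1, the homeodomain factor of limb and dermal mesenchyme, was 34.0, 34.9 and 37.9 FPKM in untreated cells and 25.3, 22.5 and 23.7 at day 5. The 2 groups were well apart. Prrx1 fell by 0.58 log2 units (SE 0.06, limma adjusted p 0.000215, 3 of 3 libraries lower), the largest change of the 9. Zeb1, a repressor of epithelial genes, was 13.5, 15.5 and 15.1 FPKM in untreated cells and 11.5, 11.6 and 12.4 at day 5. Again every treated library lay below every control. Zeb1 fell by 0.31 log2 units (SE 0.07, limma adjusted p 0.0113, 3 of 3 libraries lower). The other 6 factors ran from -0.30 for Snai1 to 0.16 for Runx1 and none was called. Runx1 was the only one of the 6 whose groups did not overlap (limma adjusted p 0.0719, 3 of 3 libraries higher).

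At day 5, 3 of the 9 factors were called, beside 37.2% of all genes tested, so the count is close to the background and is not a result about the factors as a group. Their median change was -0.27 beside 0.00 for all genes. The bulk samples cannot tell fewer cells of a type from less RNA per cell, and the labels do not say that replicates were separate cultures, so p measures the spread between these samples. The 3 calls held without any 1 library, and the count was 5 without day 5 replicate 3, when Snai1 (-0.42, limma adjusted p 0.0481) and Snai2 (-0.36, limma adjusted p 0.0422) joined. Twist2 was called without untreated replicate 1 (-0.25, limma adjusted p 0.0284). Genes that work with the factors or below them moved as well. Of 9 partners, inhibitors and corepressors tested, 6 were called, all lower, led by the bHLH inhibitors Id3 (-1.45) and Id1 (-1.36). Mesenchymal effector genes were called in 10 of 14 cases, 9 of them lower, with the matrix gene Postn at -3.17 and Dcn at -1.58, and a median of -0.43. Of 18 listed epithelial genes that Snai and Zeb factors repress, only 6 passed the expression filter, and 4 of these were called. They were the keratin Krt8 at 3.79, the claudin Cldn3 at 1.71, Krt19 at 1.28 and the junction gene Pkp3 at -0.58. Krt8 reached 1 FPKM in the day 5 libraries only, so it was tested because it is high there, and its call adds nothing to that level. Whether the fall of Zeb1 had a part in this was not tested. Other mesenchymal transcription factors were called in 6 of 8 cases, all lower, with Osr1 at -1.23 and Alx1 at -0.45, and in 4 to 6 without 1 library. Runx3 fell by 0.58. Of the pluripotency markers Nanog rose by 0.51, a call kept in 3 of 6 fits without 1 library, and its part in these changes was not tested. Nanog was at most 0.437 FPKM outside the long-term KO libraries and was tested through those only.

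The siRNA experiment repeats the 4OHT treatment with a control siRNA and collection at day 6. It differs from the total RNA experiment in library preparation and in the transfection. Prrx1 and Zeb1 were again called lower, and several other factors differed between the 2 treated libraries. Prrx1, which marks the mesenchymal lineage of the limb, was 92.7 and 92.8 FPKM in siCtrl and 62.8 and 51.5 in 4OHT + siCtrl. Both treated libraries lay below both controls. Prrx1 fell by 0.70 log2 units (SE 0.12, limma adjusted p 0.0163, 2 of 2 libraries lower), and by 0.56 (limma adjusted p 0.00982) without the library labelled 4OHT + siCtrl replicate 2. Zeb1, the E-box repressor, was 20.3 and 19.2 FPKM in siCtrl and 12.3 and 10.6 in 4OHT + siCtrl. The groups did not overlap. Zeb1 fell by 0.78 log2 units (SE 0.12, limma adjusted p 0.0156, 2 of 2 libraries lower), and by 0.68 (limma adjusted p 0.0149) without that library. Twist1, the bHLH factor, was 47.2 and 51.5 FPKM in siCtrl and 28.4 and 14.0 in 4OHT + siCtrl, the lower value in the library labelled replicate 2. The treated libraries were lower but far apart, and Twist1 was not called (-1.30, SE 0.36, limma adjusted p 0.0627, 2 of 2 libraries lower). Without the library labelled replicate 2 its change was -0.79 (limma adjusted p 0.0908), and without replicate 1 it was called at -1.81 (limma adjusted p 0.0113). The remaining 6 factors ran from -0.23 for Runx2 to 0.51 for Zeb2 and none was called.

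In 4OHT + siCtrl, 2 of the 9 factors were called, beside 13.7% of all genes tested. A list of 9 genes near that share would hold about 1 call, so the count says little beyond Prrx1 and Zeb1 themselves. The median of the 9 was -0.19 beside 0.08 for all genes, and 0.11 beside 0.07 without the library labelled replicate 2. Much of this rested on which libraries were kept and on the groups in the fit. Fitted with 4OHT + siCtrl and siCtrl alone, neither Prrx1 (limma adjusted p 0.0979) nor Zeb1 (limma adjusted p 0.0905) was called. Without siCtrl replicate 1 or siCtrl replicate 2 no factor was called in limma, with adjusted p 0.104 and 0.124 for Prrx1 and 0.107 and 0.11 for Zeb1. Without the library labelled 4OHT + siCtrl replicate 2, 5 of 9 factors were called, beside 27.8% of all genes, and the genome-wide count went from 1466 to 2959. That count was 2636 without 4OHT + siCtrl replicate 1, 146 without siCtrl replicate 1 and 103 without siCtrl replicate 2. Snai2, a repressor of epithelial genes that marks neural crest and fibroblasts, was 9.46 and 8.44 FPKM in siCtrl and 17.2 and 7.08 in 4OHT + siCtrl. Replicate 1 lay above and the library labelled replicate 2 below both controls. Without that library Snai2 was higher by 0.94 (limma adjusted p 0.0105). Zeb2, the paralog of Zeb1, was 4.58 and 3.97 FPKM in siCtrl and 9.72 and 3.84 in 4OHT + siCtrl. It split in the same way, and without that library was higher by 1.17 (limma adjusted p 0.00936). Runx1, the Runt domain factor, was 4.76 and 4.22 against 6.43 and 4.33. Only replicate 1 stood apart from the controls, and without the library labelled replicate 2 Runx1 was higher by 0.51 (limma adjusted p 0.0464). These 3 directions therefore rest on 1 treated library. Mesenchymal effector genes were called in 10 of 17 cases, all lower, and in 12 of 17 without that library. Dcn was at -5.05 with all libraries and without that one, whereas Postn was at -4.07 and, without it, at -3.23 and not called (limma adjusted p 0.0805). Without siCtrl replicate 1 the count was 4 and without siCtrl replicate 2 it was 3. No epithelial gene was called (0 of 9 in limma, 4 at an unadjusted p under 0.05), 7 were without 4OHT + siCtrl replicate 1, and 2 without the library labelled replicate 2, Krt18 at 1.83 and Krt19 at 0.89. Other mesenchymal transcription factors were called in 5 of 10 cases, with Msx1 at -2.46, Osr1 at -1.30 and Msx2 at 1.05. The count was 6 without the library labelled replicate 2, with Msx1 at -1.88 and Msx2 at 0.98. The bone genes Bglap and Spp1 were called at 2.65 and 0.53 (2.39 and 0.37 without that library), while Prrx2 fell by 1.14 (0.93 without it) and Tcf3 by 0.73. Bglap was tested through the 4OHT + siDnmt1 libraries only and was at most 0.647 FPKM elsewhere, so its change here is a description. The neural marker Tubb3 rose by 1.97. None of these genes was called in limma without siCtrl replicate 1 or siCtrl replicate 2. Tubb3 was called without either library of 4OHT + siCtrl. Map2, of the same list of neural markers, was 5.13 and 4.26 FPKM in siCtrl and 2.56 and 3.22 in 4OHT + siCtrl. It was lower but not called (-0.68, limma adjusted p 0.115). The part of Tubb3 and Map2 in the result was not tested.

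The inhibitor experiment also holds cells at day 6 after 4OHT without siRNA. Its controls are untreated cells with the same allele, and these controls are shared with the TSA and PD0325901 comparisons. Twist1 fell to less than its control level in both libraries, with Zeb1 and Runx1 lower by smaller margins over the replicate spread. Twist1, the progenitor factor, was 40.2 and 42.5 FPKM in untreated cells and 18.4 and 19.2 at day 6. Both treated libraries lay well below both controls. Twist1 fell by 1.13 log2 units (SE 0.15, limma adjusted p 0.00257, 2 of 2 libraries lower), a 2.19-fold fall. Zeb1, the repressor of Cdh1, was 18.8 and 17.8 FPKM in untreated cells and 7.35 and 9.73 at day 6. The groups did not overlap. Zeb1 fell by 1.10 log2 units (SE 0.33, limma adjusted p 0.0448, 2 of 2 libraries lower). Runx1, a factor of blood and cartilage progenitors, was 7.38 and 7.74 FPKM in untreated cells and 4.56 and 4.81 at day 6. Both treated values were lower. Runx1 fell by 0.68 log2 units (SE 0.19, limma adjusted p 0.0402, 2 of 2 libraries lower). Of the other 6 factors, changes ran from -0.69 for Prrx1 to 0.49 for Zeb2. Twist2, the paralog of Twist1, was 24.2 and 26.9 FPKM in untreated cells and 38.4 and 31.4 at day 6, higher in both but not called (0.44, limma adjusted p 0.0533). Prrx1 was 66.1 and 75.5 against 33.6 and 57.1, lower in both but not called (limma adjusted p 0.2).

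At day 6, 3 of the 9 factors were called, beside 24.9% of all genes tested, a share near the background, and their median was -0.40 beside 0.00 for all genes. Only the call of Twist1 held without each library. Zeb1 was not called without untreated replicate 1 (-1.06, limma adjusted p 0.17), untreated replicate 2 (-1.14, limma adjusted p 0.151), day 6 replicate 1 (-0.90, limma adjusted p 0.178) or day 6 replicate 2 (-1.30, limma adjusted p 0.0788). Runx1 was not called without the same 4 libraries in turn (-0.71, -0.64, -0.64 and -0.72, limma adjusted p 0.154, 0.191, 0.135 and 0.108). The count of factors called was 1 in each case. Calls over all genes dropped too: they went from 2846 to 893 without untreated replicate 1, 849 without untreated replicate 2, 1844 without day 6 replicate 1 and 1585 without day 6 replicate 2. Mesenchymal effector genes were called in 8 of 15 cases, 6 lower and 2 higher, from Col3a1, a collagen, at -3.76 to the tenascin Tnc at 1.38. Among partners, the E protein Tcf4, which dimerizes with Twist factors, fell by 0.91. Of 10 other mesenchymal transcription factors 4 were called, with Foxc2 at 4.00, Osr1 at -1.27, Tbx15 at -1.12 and Msx1 at -0.94, and 2 or 3 without 1 library. Bglap, a bone gene downstream of Runx2, was called at 3.43, also without any 1 library, where Runx1 was called lower and Runx2 was not called. It reached 1 FPKM in 3 libraries, 1 of them outside 4OHT + PD0325901 (1.21 FPKM). Bglap was thus tested mainly through the 4OHT + PD0325901 libraries, where it is high, so its change at day 6 is a description. Among markers of other cell types the endothelial gene Kdr rose by 2.34, and Map2 fell by 0.99, a call that depended on single libraries. Kdr was 0.0539 and 0.0445 FPKM in untreated cells and 0.528 and 0.808 at day 6, under the 1 FPKM of the filter. It was tested through the TSA and 4OHT + PD0325901 libraries, so its change here is a description. The part of Kdr and Map2 in the result was not tested. Krt19 was the 1 epithelial gene of 7 called, at 2.25, and was not called without untreated replicate 1 or untreated replicate 2 (0 of 7 in limma each time).

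The 3 experiments can be set side by side for 4OHT, each against its own controls. Zeb1 was called lower in all 3 (-0.31, -0.78 and -1.10), although only the first of these calls held without each library. The siRNA call was lost without either siCtrl library and with the 2 groups fitted alone (limma adjusted p 0.0905), and the day 6 call without each of its 4 libraries and with no expression filter (limma adjusted p 0.0715). Prrx1 was called lower in the total RNA and siRNA experiments (-0.58 and -0.70) and was not called in the inhibitor experiment (-0.69). Twist1 was called lower in the total RNA and inhibitor experiments (-0.34 and -1.13) and was not called in the siRNA experiment (-1.30). Among these day 5 and day 6 groups, Runx1 was called lower in the inhibitor experiment only (-0.68), where day 5 gave 0.16 and 4OHT + siCtrl 0.23. In the long-term KO of the total RNA experiment, described below, Runx1 was called lower as well (-0.64). Without the library labelled 4OHT + siCtrl replicate 2, the values of the siRNA experiment were -0.68 for Zeb1, -0.56 for Prrx1, -0.79 for Twist1 and 0.51 for Runx1, of which Zeb1, Prrx1 and Runx1 were called. Differences between experiments in the size of these changes were not tested, and day, preparation and transfection all differ.

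**Figure D2:**
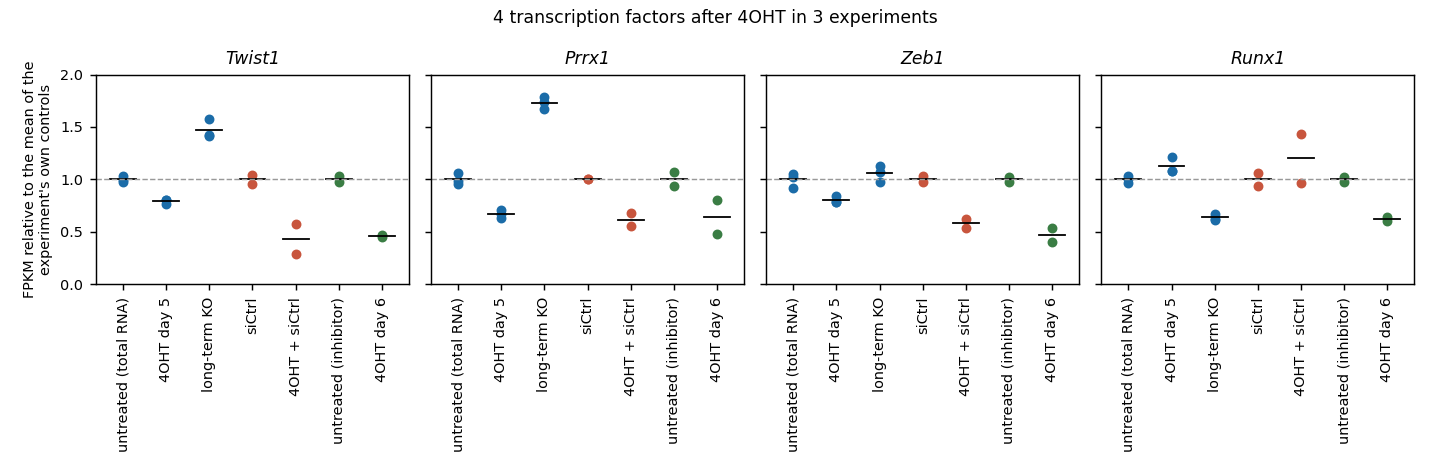
FPKM of Twist1, Prrx1, Zeb1 and Runx1 relative to the mean of each experiment's own controls (vertical, 1 is the control mean) in control and 4OHT libraries of the 3 experiments (horizontal); points are libraries. Zeb1 lies below 1 in all 7 libraries of day 5, 4OHT + siCtrl and day 6, the one labelled 4OHT + siCtrl replicate 2 included. Runx1 lies above its controls at day 5 and below them at day 6 of the inhibitor experiment. In 4OHT + siCtrl, also collected at day 6, Runx1 lies above its controls in replicate 1 and between them in the library labelled replicate 2.

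The long-term KO, named by its label, shows the factors in cells grown on after 4OHT. Their gene-level Setdb1 lay above that of untreated cells, a value that does not measure deletion of the allele. The culture is compared with the same untreated libraries as day 5 was and, in a further test, with day 5 itself. Its pattern was not a continuation of day 5: Twist1 and Prrx1 stood above the untreated level instead of below it. Twist1, the progenitor factor, was 25.1, 22.4 and 22.6 FPKM in the long-term KO, against 15.8, 15.5 and 16.3 in untreated cells. Every KO library lay above every control. Twist1 rose by 0.55 log2 units over untreated cells (SE 0.05, limma adjusted p 3.07e-05, 3 of 3 libraries higher). Prrx1, the limb mesenchyme factor, was 59.6, 63.6 and 61.8 FPKM in the long-term KO, against 34.0, 34.9 and 37.9. The groups were far apart. Prrx1 rose by 0.79 log2 units (SE 0.06, limma adjusted p 8.86e-06, 3 of 3 libraries higher). Snai2, the E-box repressor, was 6.11, 5.89 and 5.36 FPKM in the long-term KO, against 1.84, 2.04 and 2.17. No library overlapped. Snai2 rose by 1.48 log2 units (SE 0.11, limma adjusted p 1.06e-05, 3 of 3 libraries higher), a 2.78-fold rise and the largest of the 9. Runx1, the Runt domain factor, was 3.61, 3.64 and 3.95 FPKM in the long-term KO, against 5.68, 5.88 and 6.07. Every KO library was lower. Runx1 fell by 0.64 log2 units (SE 0.06, limma adjusted p 4.24e-05, 3 of 3 libraries lower). Runx2, the osteoblast factor, was 3.58, 3.64 and 3.84 FPKM in the long-term KO, against 4.33, 4.77 and 4.51. The groups did not overlap, by a small margin. Runx2 fell by 0.29 log2 units (SE 0.07, limma adjusted p 0.00861, 3 of 3 libraries lower). Twist2, Snai1, Zeb1 and Zeb2 lay between 0.02 and 0.17, overlapped the controls and were not called.

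In the long-term KO, 5 of the 9 factors were called against untreated cells, beside 67.6% of all genes tested, a share below that background, and the count was 5 without any 1 library. Their median was 0.08 beside 0.07 for all genes. Most of the transcriptome differed in this culture, so a call there is common. Among genes around the factors, 7 of 9 partners and inhibitors were called, all higher, with Id2 at 2.26 and Id3 at 2.05, both of which bind E proteins away from Twist factors. Prrx2, the paralog of Prrx1, rose by 2.03 and Runx3 fell by 0.79. Other mesenchymal transcription factors were called in 5 of 8 cases, from the homeobox gene Alx4 at 2.46 to Osr1 at -0.36. Effector genes went both ways, 6 higher and 2 lower of 14, with Pdgfrb at 2.80 and Postn at 1.88 but Pdgfra at -2.85. Of 6 epithelial genes, Krt19 rose by 1.60 whereas Epcam (-1.96), Cldn3 (-1.80) and Pkp3 (-0.81) fell. Spp1, a bone matrix gene downstream of Runx2, fell by 2.49. Among markers of other cell types the neural gene Map2 rose by 1.54 and Nanog by 1.81, and their part in these changes was not tested. Nanog passed the expression filter through the long-term KO libraries only, so its higher level there was a condition of the test.

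Against day 5, the long-term KO shows which levels differ from those of the first days. Both groups were given 4OHT and differ in time since then and in time in culture. No untreated group grown on for the same time was among the libraries. Time since 4OHT therefore cannot be told apart from growth in culture, here or against untreated cells. The factors that had fallen by day 5 were all higher again in the long-term culture. Twist1 rose by 0.89 log2 units from 12.1 to 12.8 FPKM at day 5 to 22.4 to 25.1 (SE 0.05, limma adjusted p 2.4e-06, 3 of 3 libraries higher). Prrx1 rose by 1.37 from 22.5 to 25.3 FPKM to 59.6 to 63.6 (SE 0.06, limma adjusted p 5.48e-07, 3 of 3 libraries higher). Both passed the untreated level as well as the day 5 level. Zeb1, which was 14.3, 16.5 and 15.7 FPKM in the long-term KO against 11.5, 11.6 and 12.4 at day 5, was no longer below untreated cells, with 1 of 3 libraries in their range and 2 above it. The KO and day 5 groups did not overlap, and it rose by 0.39 (SE 0.07, limma adjusted p 0.00168, 3 of 3 libraries higher). Snai2 was 1.69, 1.42 and 1.90 FPKM at day 5, and rose by 1.74 (SE 0.11, limma adjusted p 4.67e-06, 3 of 3 libraries higher). Its rise was thus absent at day 5 and present in the long-term KO. Runx1, at 6.36, 6.32 and 7.14 FPKM at day 5, fell by 0.81 (SE 0.06, limma adjusted p 1.28e-05, 3 of 3 libraries lower). Runx2, at 4.13, 4.95 and 4.76 FPKM at day 5, fell by 0.31 (SE 0.07, limma adjusted p 0.00629, 3 of 3 libraries lower). Neither Runx gene had been called at day 5.

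Weaker rises were called for Snai1 and Twist2 against day 5. Snai1, a repressor of Cdh1, was 1.57, 1.49 and 1.96 FPKM at day 5 and 2.23, 2.26 and 2.55 in the long-term KO. The groups did not overlap and Snai1 rose by 0.47 (SE 0.13, limma adjusted p 0.0157, 3 of 3 libraries higher), but it was not called without day 5 replicate 1 (0.43, limma adjusted p 0.0507), day 5 replicate 2 (0.40, limma adjusted p 0.0541) or long-term KO replicate 3 (0.41, limma adjusted p 0.0558). Twist2, a repressor of bone and fat differentiation, was 13.6, 14.7 and 13.4 FPKM at day 5 and 16.6, 16.4 and 15.2 in the long-term KO. All KO libraries were higher, by little, and Twist2 rose by 0.20 (SE 0.08, limma adjusted p 0.0434, 3 of 3 libraries higher). It was not called without day 5 replicate 1 (0.19, limma adjusted p 0.109), day 5 replicate 3 (0.18, limma adjusted p 0.119), long-term KO replicate 1 (0.18, limma adjusted p 0.116) or long-term KO replicate 2 (0.19, limma adjusted p 0.108). This is the least secure of the calls in total RNA. Against day 5, 8 of the 9 factors were called, beside 66.1% of all genes tested, and the count was 6 or 7 without 1 library. That share of 9 would be about 6, and the direction, 6 higher and 2 lower, is the plainer description. The median of the 9 was 0.39 beside 0.04 for all genes. All 9 partners and inhibitors tested were called higher, led by Id3 at 3.51 and Id2 at 2.92, and effector genes were called in 11 of 14 cases, 8 of them higher, with Postn at 5.05 and Pdgfrb at 3.13. Other mesenchymal transcription factors were called in 7 of 8 cases, all higher, with Alx4 at 2.84 and Tbx18 at 1.59, and Prrx2 rose by 2.39. Of 6 epithelial genes Krt8 (-4.20, tested through the day 5 libraries only), Cldn3 (-3.51) and Epcam (-2.32) fell and Krt19 rose by 0.32. Spp1 fell by 2.35, and the markers Map2 (1.72) and Nanog (1.31, tested through the long-term KO libraries only) rose.

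Dnmt1 keeps DNA methylation through cell division, and the comparison shows how the RNAs of the factors differ after its knockdown in cells not given 4OHT. The siCtrl libraries are the same as for 4OHT + siCtrl. Among the factors, only Prrx1 was called, and it was lower. Prrx1, the homeodomain factor, was 92.7 and 92.8 FPKM in siCtrl and 47.6 and 52.5 in siDnmt1. Both knockdown libraries lay near the same low level, well apart from the controls. Prrx1 fell by 0.89 log2 units (SE 0.12, limma adjusted p 0.0107, 2 of 2 libraries lower). That call depended on all 4 libraries. Prrx1 was not called without siCtrl replicate 1 (-0.89, limma adjusted p 0.0919), siCtrl replicate 2 (-0.89, limma adjusted p 0.105), siDnmt1 replicate 1 (-0.82, limma adjusted p 0.115) or siDnmt1 replicate 2 (-0.96, limma adjusted p 0.0832), and the count of factors called was then 0 in limma, with its size nearly unchanged. Twist1 was 24.4 and 27.5 FPKM in siDnmt1, below both siCtrl libraries (47.2 and 51.5), but was not called (-0.93, SE 0.36, limma adjusted p 0.172, 2 of 2 libraries lower). Runx1 was 7.58 and 7.54 FPKM, above both siCtrl libraries (4.76 and 4.22), and was not called (0.74, SE 0.20, limma adjusted p 0.0817, 2 of 2 libraries higher). Zeb1 was 15.0 and 15.2 FPKM against 20.3 and 19.2 (-0.38, limma adjusted p 0.119), from libraries under 10 effective fragments. The spread in this experiment is shared by its 4 groups and includes the 2 unlike libraries of 4OHT + siCtrl. Fitted with siDnmt1 and siCtrl alone, 5 of 9 factors were called, with Twist1 (limma adjusted p 0.00369), Zeb1 (0.0135), Runx1 (0.00954) and Runx2 (0.0282) added to Prrx1. Calls over all genes rose strongly in that fit too, so the larger count is not a result about the factors as a group.

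With siDnmt1, 1 of the 9 factors was called, beside 7.92% of all genes tested, which is about the background share. The median of the 9 was -0.21 beside -0.09. Genome-wide, the 846 calls shrank to 109 without siCtrl replicate 1, 94 without siCtrl replicate 2, 74 without siDnmt1 replicate 1 and 86 without siDnmt1 replicate 2. Epithelial genes were called in 3 of 9 cases, Krt8 at 7.97, Krt18 at 7.18 and the claudin Cldn4 at 4.26, and effector genes in 5 of 17, 4 lower and 1 higher, with Pdgfrb at -2.12, Dcn at -1.59 and Thy1 at 1.12. Prrx2, the paralog of Prrx1, fell by 1.02, Id3 by 1.34 and Cbfb by 0.71. Of 10 other mesenchymal transcription factors, Sox9 rose by 1.81 and Msx1 (-2.03) and Alx4 (-1.08) fell. The neural marker Tubb3 rose by 1.74. Map2, of the same list of neural markers, was lower in both siDnmt1 libraries than in both siCtrl libraries, but not called (-0.87, limma adjusted p 0.0875). The part of these markers in the result was not tested. Without any 1 of the 4 libraries, Tubb3 was not called, and these counts were 0 in limma for the epithelial genes, the paralogs, the partners and the other transcription factors, and 1 for the effectors.

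Cells given 4OHT and siDnmt1 were set against 4OHT + siCtrl, to ask what the knockdown adds to 4OHT. The control group here is the one that holds the library labelled 4OHT + siCtrl replicate 2. No factor was called. Of the 9 factors, 0 were called in limma (2 at an unadjusted p under 0.05), beside 2.04% of all genes tested. Twist2 (-0.27, limma adjusted p 0.151) and Runx2 (-0.65, limma adjusted p 0.24) were the 2. Both knockdown libraries lay below both controls for these genes, with Twist2 at 31.8 and 32.6 FPKM against 39.7 and 38.3, and Runx2 at 5.40 and 7.34 against 12.6 and 7.86. The median of the 9 was -0.11 beside -0.02, and -0.38 beside -0.02 without the library labelled replicate 2. Without the library labelled 4OHT + siCtrl replicate 2 the count was again 0 in limma, beside 530 calls over all genes instead of 218, which were 2410 without replicate 1 and 71 without 4OHT + siDnmt1 replicate 1. Without 4OHT + siCtrl replicate 1 it was 3, with Snai2 at 0.67 (limma adjusted p 0.0319), Zeb2 at 0.76 (limma adjusted p 0.0365) and Runx1 at 0.70 (limma adjusted p 0.0257). In all 3, replicate 1 lay above the library labelled replicate 2. Around the factors, the inhibitor Id3 (-1.30) and the Runx partner Cbfb (-1.05) fell, and Dcn rose by 1.38. Without the library labelled 4OHT + siCtrl replicate 2, Id3 was not called (-1.13, limma adjusted p 0.0521), and Cbfb (-1.10) and Dcn (1.37) were. Only 1 of the partners was called without 4OHT + siDnmt1 replicate 1, and effectors went from 1 of 17 to 7 without 4OHT + siCtrl replicate 1 and 2 without the library labelled replicate 2. No epithelial gene was called (0 of 9 in limma, 3 at an unadjusted p under 0.05). Without the library labelled 4OHT + siCtrl replicate 2, 5 were, led by Krt8 at 6.77 and Krt18 at 6.18, and without replicate 1, 3 were.

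Whether 4OHT acts differently with siDnmt1 than with siCtrl was tested as an interaction. It compares the change with 4OHT in siDnmt1 cells with that in siCtrl cells. The interaction was called for 0 of the 9 factors in limma (1 at an unadjusted p under 0.05), beside 0.197% of all genes tested. Prrx1 was the 1 (0.69, SE 0.16, limma adjusted p 0.287). It was 49.5 and 49.3 FPKM with both treatments, 47.6 and 52.5 with siDnmt1 alone and 62.8 and 51.5 with 4OHT alone. All 6 values lay below the 92.7 and 92.8 of siCtrl, so the 2 treatments together took Prrx1 no lower than siDnmt1 alone. Without 4OHT + siCtrl replicate 1 the interaction of Prrx1 was called (0.83, limma adjusted p 0.0198, a count of 1 factor), and without the library labelled replicate 2 the count was 0 in limma. Among effector genes, 1 of 17 was called, Dcn at 2.96, with and without that library and in each of 8 fits without 1 library.

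TSA blocks histone deacetylases, which the Snai, Zeb, Twist and Runx factors recruit as corepressors. A day of TSA acts on acetylation genome-wide, so direct and indirect effects on the RNA of a factor cannot be told apart. Prrx1 lost most of its RNA, Snai1 and Zeb1 fell as well, and no factor was called higher. Prrx1, the mesenchymal homeodomain factor, was 66.1 and 75.5 FPKM in untreated cells and 10.5 and 6.34 with TSA. Both treated libraries lay far below the controls and below every other library of the experiment. Prrx1 fell by 3.10 log2 units (SE 0.36, limma adjusted p 0.000262, 2 of 2 libraries lower), or 8.58-fold. Snai1, the short-lived repressor of Cdh1, was 11.8 and 14.6 FPKM in untreated cells and 4.98 and 7.14 with TSA. The groups did not overlap. Snai1 fell by 1.12 log2 units (SE 0.29, limma adjusted p 0.0123, 2 of 2 libraries lower), and was not called without untreated replicate 2 (-0.97, limma adjusted p 0.0752) or TSA replicate 1 (-0.87, limma adjusted p 0.0747). Zeb1, the other E-box repressor, was 18.8 and 17.8 FPKM in untreated cells and 7.63 and 7.17 with TSA. Both TSA values were low, although TSA replicate 1 held 0.856 effective fragments. Zeb1 fell by 1.29 log2 units (SE 0.33, limma adjusted p 0.0111, 2 of 2 libraries lower), and was not called without untreated replicate 1 (-1.25, limma adjusted p 0.0533) or TSA replicate 2 (-1.25, limma adjusted p 0.0552). Zeb2 was 4.86 and 5.25 FPKM in untreated cells and 3.22 and 3.39 with TSA, lower in both but not called (-0.60, SE 0.23, limma adjusted p 0.0582). Runx2 was 12.7 and 13.7 FPKM against 11.8 and 6.34 (-0.60, limma adjusted p 0.121), and was called without TSA replicate 1 (-1.05, limma adjusted p 0.015). Twist1, Twist2, Snai2 and Runx1 ran from -0.40 to 0.17 and were not called.

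With TSA, 3 of the 9 factors were called, beside 55.9% of all genes tested, which is fewer than that share would give. The median of the 9 was -0.60 beside 0.10 for all genes, a background that quantile normalization moved to -0.01. The count was 2 or 3 without 1 library, and the 6382 calls over all genes became 4209 without TSA replicate 2. Of 18 listed epithelial genes that Snai and Zeb factors repress, only 7 passed the expression filter, and 5 of these were called. Among these, Cdh1 and Epcam passed the expression filter only through the TSA libraries, where they are high, so their levels are a description and their calls add nothing. Epcam, an epithelial adhesion gene, was 0.839 and 1.09 FPKM in untreated cells and 28.1 and 29.2 with TSA. Cdh1, the epithelial cadherin, was 0.268 and 0.203 against 2.60 and 2.49. Krt19 rose by 4.20 and Cldn3 by 2.86, while Pkp3 fell by 0.83. The count was 3 of 6 without TSA replicate 1 or TSA replicate 2. Markers of other cell types also rose, with the macrophage gene Cd68 at 3.77, the endothelial gene Kdr at 3.67 and the neural gene Map2 at 3.54, all 3 called without any 1 library. Their part in the result was not tested. Whether the fall of Snai1 and Zeb1 had a part in the levels of epithelial genes was not tested. Of the other mesenchymal transcription factors, 8 of 10 were called, 6 lower and 2 higher, with Osr1 at -4.05, Alx4 at -2.63 and Foxc2 at 2.60. Effector genes were called in 9 of 15 cases, from Col3a1 at -3.57 to Thy1, a fibroblast surface protein, at 1.40. Snai3, a further Snai gene, was called at 3.01 but was likewise tested through the TSA libraries only, and Runx3 fell by 1.07. Without TSA replicate 1 or TSA replicate 2, 1 of these 2 was called. Partners and corepressors were called in 7 of 11 cases, 6 lower, with Id3 at -1.98, Tcf12 at -1.71 and Id4 at 3.54, and in 6 or 7 without 1 library. Of the bone genes, Spp1 rose by 2.25 and Alpl was called at 4.41, again tested through the TSA libraries only, while no Runx factor of the 9 was called.

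PD0325901 blocks MEK, and the comparison shows which RNAs of the factors differ after a day of it, through direct or indirect effects. ERK and its ETS and AP-1 factors drive growth programmes that oppose matrix and contractile genes in fibroblasts. Runx1 was the 1 factor called, and the largest change of Runx1 anywhere in the series. Runx1 was 7.38 and 7.74 FPKM in untreated cells and 1.18 and 1.24 with PD0325901. The treated libraries were close to each other and far below the controls. Runx1 fell by 2.55 log2 units (SE 0.19, limma adjusted p 0.000375, 2 of 2 libraries lower), or 5.84-fold, and was called without any 1 library. Twist2 was 24.2 and 26.9 FPKM in untreated cells and 21.2 and 17.3 with PD0325901. It was lower in both but not called (-0.41, limma adjusted p 0.0966). Prrx1 was 66.1 and 75.5 FPKM in untreated cells and 90.8 and 147 with PD0325901. It was higher in both, with a spread too wide for a call (0.71, SE 0.36, limma adjusted p 0.235). The other 6 factors ran from -0.48 for Snai1 to 0.52 for Snai2 and were not called.

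With PD0325901, 1 of the 9 factors was called, beside 13.7% of all genes tested, a share at the background, so the result is Runx1 alone. Their median was -0.25 beside -0.07. Genome-wide, the 1569 calls went to 409 without untreated replicate 1, 377 without untreated replicate 2 and 757 without PD0325901 replicate 1. Effector genes were called in 10 of 15 cases, 8 higher, with Postn at 5.12 and Acta2, smooth muscle actin, at 4.09, and Vim at -0.86. The count was 6 without untreated replicate 1 or untreated replicate 2. Spp1, a target of Runx and ETS factors, was 425 and 410 FPKM in untreated cells and 25.3 and 21.5 with PD0325901, a fall of 4.16. It had risen with TSA and in 4OHT + siCtrl, where Runx1 and Runx2 were not called over all libraries. Of 10 other mesenchymal transcription factors, Tbx18 rose by 0.74 and Sox9 fell by 1.75, and Tcf4 fell by 0.60, each called in 1 of 4 fits without 1 library. The markers Kdr (2.01) and Map2 (1.55) rose. Kdr was only 0.512 and 0.493 FPKM with PD0325901, under the filter. It was tested through the TSA and 4OHT + PD0325901 libraries, so its change here is a description. The part of both markers in the result was not tested. Of 7 epithelial genes, Krt19 rose by 2.83 and Epcam (-2.20) and Pkp3 (-1.32) fell, and none was called in limma without untreated replicate 1 or untreated replicate 2.

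The same block in cells given 4OHT was read against day 6. Gene-level Setdb1, which does not measure deletion, was 0 there in replicate 1 and 5.30 FPKM in replicate 2. This comparison shares no control library with the PD0325901 comparison above. Runx1 was lower again, now with Twist2. Runx1 was 4.56 and 4.81 FPKM at day 6 and 1.57 and 1.61 with 4OHT + PD0325901. The groups were far apart. Runx1 fell by 1.50 log2 units (SE 0.19, limma adjusted p 0.00585, 2 of 2 libraries lower), or 2.83-fold, and was called without any 1 library, although not when the 2 groups were fitted alone (limma adjusted p 0.0765). Twist2 was 38.4 and 31.4 FPKM at day 6 and 19.9 and 20.4 with 4OHT + PD0325901. Both treated libraries were lower, also than the untreated cells. Twist2 fell by 0.78 log2 units (SE 0.14, limma adjusted p 0.0189, 2 of 2 libraries lower). It was not called without day 6 replicate 1 (-0.64, limma adjusted p 0.0834), 4OHT + PD0325901 replicate 1 (-0.77, limma adjusted p 0.0852) or 4OHT + PD0325901 replicate 2 (-0.80, limma adjusted p 0.0542), and the count of factors was then 1. Snai2 was 8.06 and 14.0 FPKM at day 6 and 16.8 and 22.1 with the inhibitor. It was higher in both but not called (0.85, limma adjusted p 0.109), and was called without day 6 replicate 2 (1.25, limma adjusted p 0.0381). With 4OHT + PD0325901, 2 of the 9 factors were called, beside 6.98% of all genes tested, where that share of 9 would be under 1, and the other 7 were not called. Their median was 0.10 beside 0.04. Calls over all genes went from 798 to 369 without day 6 replicate 1, 465 without day 6 replicate 2 and 344 without 4OHT + PD0325901 replicate 1. Effector genes were called in 8 of 15 cases, 7 higher, with Postn at 3.64 and Dcn at 2.97, and in 5 without day 6 replicate 1, 4OHT + PD0325901 replicate 1 or day 6 replicate 2. No epithelial gene was called (0 of 7 in limma, 3 at an unadjusted p under 0.05). Spp1 (-2.69), Foxc2 (-2.69), Sox9 (-2.27) and Tle1 (-1.17) fell, and the marker Map2 rose by 1.20. Of these 5, Spp1 and Tle1 were called without any 1 library.

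Whether PD0325901 acts differently after 4OHT was tested as an interaction. The interaction was called for 0 of the 9 factors in limma (1 at an unadjusted p under 0.05), beside 0.726% of all genes tested, and for none without any 1 library. Runx1 was the 1, at 1.04 (SE 0.27, limma adjusted p 0.144). Its fall with PD0325901 was 2.55 log2 units in untreated cells and 1.50 at day 6, and both treatments ended between 1.18 and 1.61 FPKM. The 2 falls are therefore not shown to differ. Around the factors, the interaction was called for the effector genes Acta2 (-2.04) and Tnc (-1.76) and, in the other direction, for Spp1 (1.46). Without 1 library, Tnc was called in 2 of 8 fits and Acta2 and Spp1 in none in limma.

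**Figure D3:**
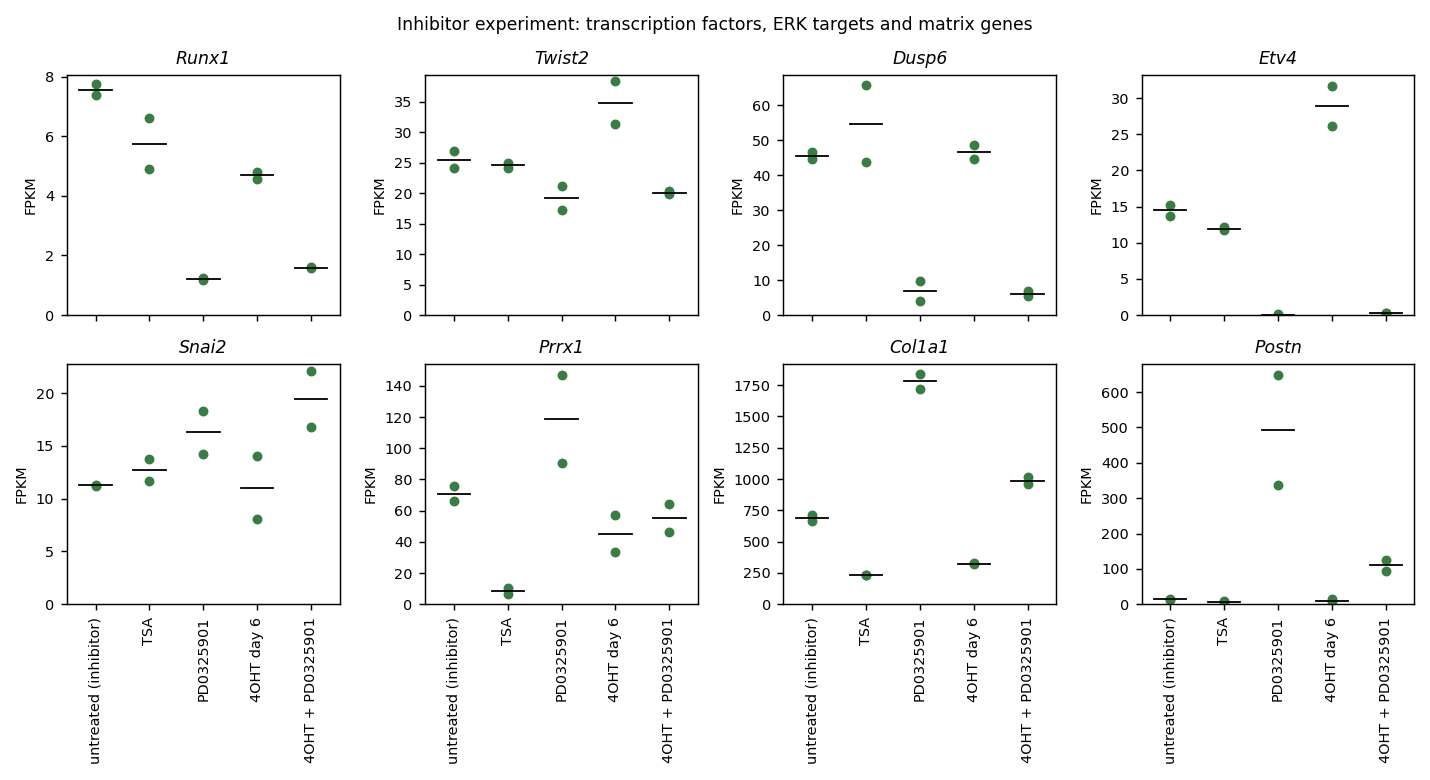
FPKM (vertical) of Runx1, Twist2, Snai2, Prrx1, the ERK targets Dusp6 and Etv4 and the matrix genes Col1a1 and Postn in the 5 groups of the inhibitor experiment (horizontal); points are libraries. Runx1 lies at 1.18 to 1.61 FPKM in all 4 libraries with PD0325901 and at 4.56 to 7.74 in the others, and Prrx1 is lowest with TSA, at 10.5 and 6.34.

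**Figure D4:**
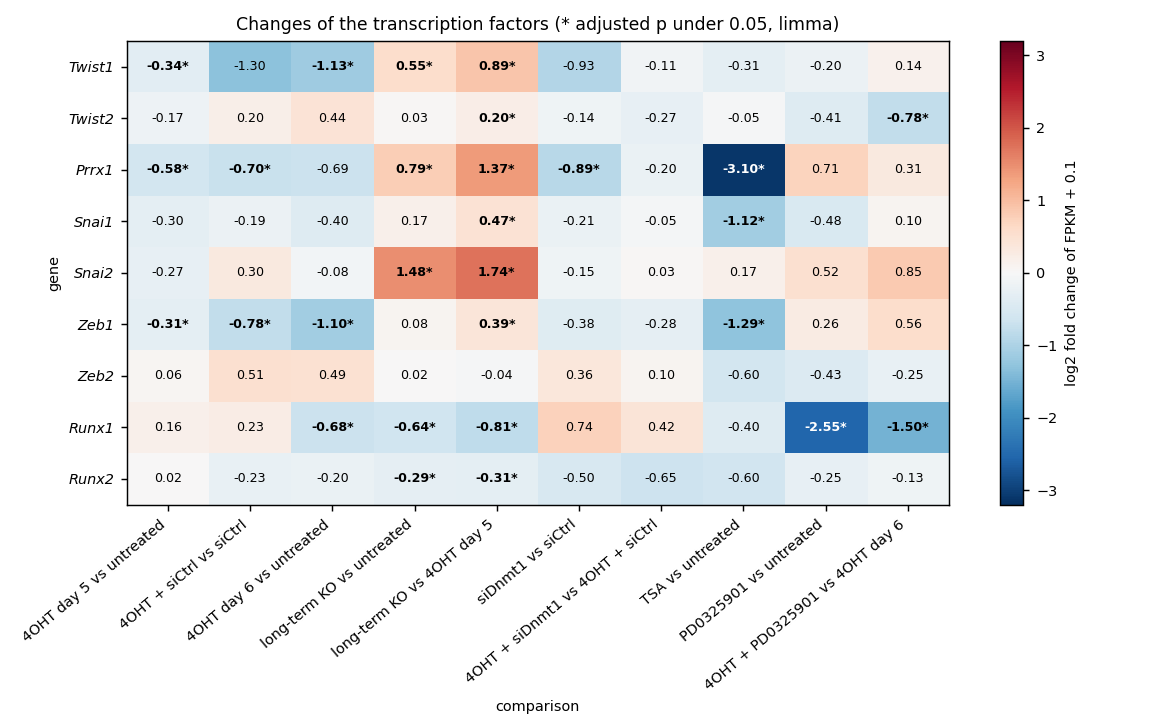
Log2 fold change of FPKM + 0.1 (colour scale) of the 9 factors (vertical) in each comparison (horizontal); stars mark adjusted p under 0.05 in limma, with all libraries in the fits. The strongest falls are Prrx1 with TSA (-3.10) and Runx1 with PD0325901 (-2.55), and the strongest rises are Snai2 in the long-term KO (1.48 and 1.74).

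**Figure D5:**
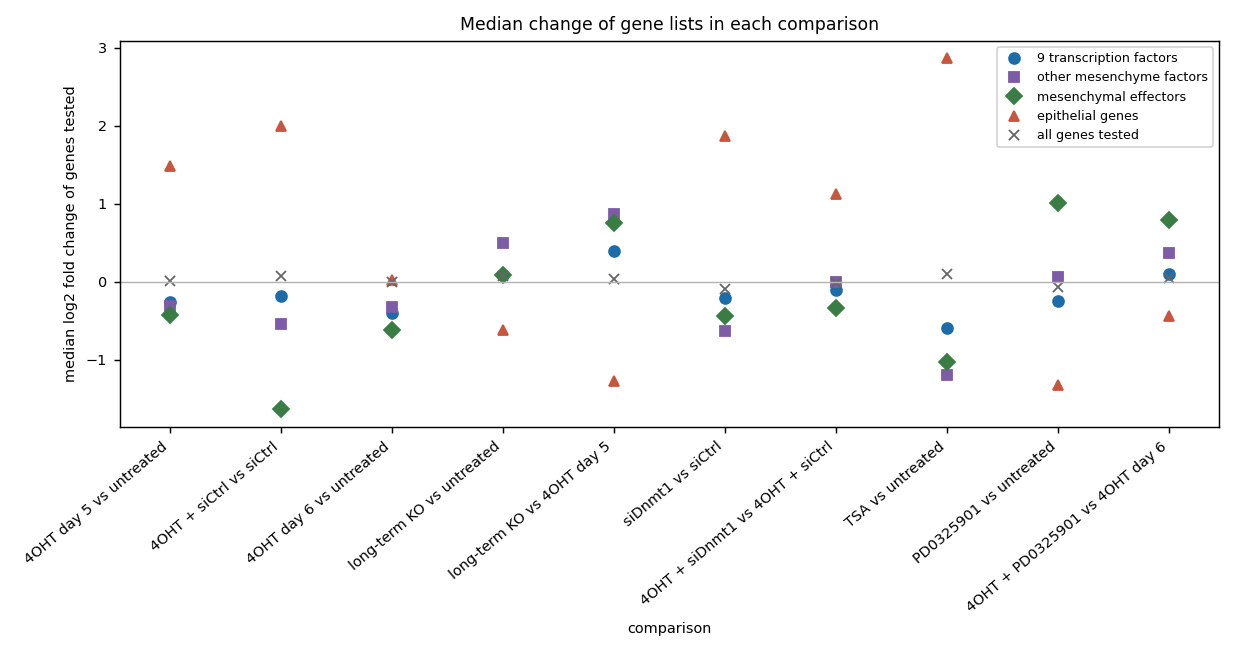
Median log2 fold change (vertical) of the genes tested in 5 gene sets for each comparison (horizontal); points are medians with all libraries in the fits. With TSA the 9 factors have a median of -0.60, effector genes -1.03 and epithelial genes 2.86 (Cdh1 and Epcam tested through the TSA libraries only), beside 0.10 for all genes. Without Cdh1 and Epcam the epithelial median turns to the -0.83 of Pkp3. Esrp2 (-1.03) and Cldn7 (-1.12) then lie below it, and Cldn3 (2.86) and Krt19 (4.20) above.

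Across the 12 group means, the factors did not move as one, although levels from different library preparations enter these correlations. Prrx1 was most like Snai1 (Pearson r 0.84) and Zeb1 (0.80), Twist1 was like Zeb1 (0.67), and Twist1 was least like Zeb2 (-0.73). Snai2 and Prrx1 ran against Runx1 (-0.59 and -0.56). Among all 8526 genes compared, Zeb1 was closest to Col3a1 (0.98), a fibrillar collagen of loose connective tissue. Runx1 was closest to Pla2g7 (0.96), a secreted phospholipase, and next to Spred2 (0.96), an inhibitor of ERK signalling. Prrx1 was closest to Rhobtb3 (0.97), Twist1 to Nfia (0.98) and Twist2 to the ribosomal gene Fau (0.88). With 12 means these are descriptions, and no test was made of them.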

How the data were processed

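RNA of 27 libraries from Setdb1 conditional knockout iMEFs was read in 3 experiments (total RNA, siRNA and inhibitor). TopHat2 2.0.12 and the mm9 genome served for alignment, and the authors deposited FPKM from Cufflinks with a 95% interval for each value. The Cufflinks version is given in the methods of the study but not in the labels. The deposited tables of group comparisons hold the authors' own tests and were not used. Genes of the siRNA and inhibitor tables were taken by symbol. Genes of the total RNA tables were taken from the locus that covers at least 95% of the gene, and a locus that joins several genes was left out. Genes with a value numbered 19786, 21510 and 21668.

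FPKM + 0.1 was taken to log2 and tested in limma 3.58.1 (R 4.3.3, trended empirical Bayes, two-sided), each experiment fitted apart with all of its groups. Genes needed 1 FPKM in at least 3 total RNA libraries or 2 libraries elsewhere, and Benjamini-Hochberg adjustment ran over all genes tested. The fit was tested on simulated data with 200 changed genes. Tables and figures were made with Python 3.11.15, pandas 2.3.3, numpy 2.4.6 and matplotlib 3.10.9. Depth (in M, mega, fragments) was inferred from the intervals of genes with a single exon and is approximate, and intervals cover counting error only. Effective fragments are the squared ratio of a value to its standard error, taken as the distance to the upper bound of the interval divided by 2. The alternatives were pseudocounts of 1 and 0.01, no filter, a filter of 5 FPKM, median-ratio scaling, quantile normalization, a 2-fold minimum, the replicate number as a block, only the groups compared, a locus cover of 80% and leaving out each library in turn.

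In each wider list the genes named are those called or, where more than 4 were called, up to 2 of the highest and 2 of the lowest, with some left out for length and with Cdh1, Etv4, Usp18, Pdgfra, Dcn and others also given as FPKM. Counts for a list are out of its genes that passed the expression filter, so genes too low to test are not in them. The factors and lists were chosen with earlier results of these data known. Levels were tested within experiments only, since preparation differed, and correlations over group means of all 3 experiments are descriptions.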

Additional observations from a re-analysis of the deposited data

Results flagged for a closer look

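Changes of opposite sign in every library, between time points or experiments under 4OHT, drew attention to 3 factors. Twist1 was lower than untreated cells in all 3 libraries at day 5 and higher in all 3 of the long-term KO, and that difference was tested: 0.89 (limma adjusted p 2.4e-06, 3 of 3 libraries higher). Set against the long-term rise, the change of Twist1 differed by -1.85 in 4OHT + siCtrl, a group that holds the library labelled replicate 2 whose Usp18 and Irf7 go against its label, and by -1.68 at day 6. These 2 differences lie across experiments and each was not tested. Prrx1 had the same pattern, with a tested difference of 1.37 between long-term KO and day 5 (limma adjusted p 5.48e-07, 3 of 3 libraries higher). Its differences of -1.50 for 4OHT + siCtrl and -1.48 for day 6 from the long-term rise were not tested. Runx1 was higher in all 3 libraries at day 5, without a call, and lower in all 3 of the long-term KO, a tested difference of -0.81 (limma adjusted p 1.28e-05, 3 of 3 libraries lower). Between day 5 of the total RNA experiment and day 6 of the inhibitor experiment its change differed by -0.84, which was not tested. Day, preparation and culture differ between these experiments.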

How the results depend on the processing

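Counts of factors called moved by over 1.5 times in these cases. With a minimum change of 2-fold, the count was 0 at day 5, 1 in the long-term KO against untreated cells, 2 in the long-term KO against day 5, 0 with siDnmt1, 0 in 4OHT + siCtrl and 1 with 4OHT + PD0325901, all in limma. With only the groups compared in the fit, it was 5 with siDnmt1, 0 in 4OHT + siCtrl (Prrx1 at limma adjusted p 0.0979 and Zeb1 at 0.0905), 5 with TSA and 0 with 4OHT + PD0325901. No other setting, apart from leaving out a library, moved a count by more than 1.5 times. Calls over all genes moved with several of these settings and are given at the end of this section.

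Leaving out each library in turn, the counts ran from 3 to 5 at day 5, 5 to 5 in the long-term KO against untreated cells, 6 to 7 against day 5, 0 to 0 with siDnmt1, 0 to 5 in 4OHT + siCtrl, 0 to 3 with 4OHT + siDnmt1 and 0 to 1 for the siDnmt1 interaction. In the inhibitor experiment they ran from 1 to 1 at day 6, 2 to 3 with TSA, 1 to 1 with PD0325901, 1 to 3 with 4OHT + PD0325901 and 0 to 0 for the PD0325901 interaction. Where 1 library of a group of 2 remains, it is assumed to vary like the other groups. Directions changed for factors that were not called over all libraries. At day 5, Zeb2 ran from -0.20 to 0.25 and Runx2 from -0.030 to 0.10. In the long-term KO against untreated cells, Twist2 ran from -0.041 to 0.10 and Zeb2 from -0.076 to 0.21, and against day 5 Zeb2 ran from -0.17 to 0.22. In 4OHT + siCtrl, Snai2 ran from -0.33 to 0.94, Zeb2 from -0.15 to 1.17, Runx1 from -0.047 to 0.51 and Runx2 from -0.56 to 0.11. The highest value of the first 3 passed the test and came without the library labelled 4OHT + siCtrl replicate 2. With 4OHT + siDnmt1 against 4OHT + siCtrl, Twist1 ran from -0.62 to 0.40, Snai1 from -0.22 to 0.11, Snai2 from -0.60 to 0.67 and Zeb2 from -0.56 to 0.76. The highest values of Snai2 and Zeb2 passed the test without 4OHT + siCtrl replicate 1. In the siDnmt1 interaction, Snai1 ran from -0.0054 to 0.32, Snai2 from -0.45 to 0.81, Zeb1 from -0.0014 to 0.20, Zeb2 from -0.92 to 0.40 and Runx2 from -0.49 to 0.18. At day 6, Snai2 ran from -0.48 to 0.32, and with TSA Twist2 ran from -0.12 to 0.025. With PD0325901, Twist1 ran from -0.40 to 0.012, Zeb1 from -0.19 to 0.71 and Runx2 from -0.55 to 0.052. With 4OHT + PD0325901, Prrx1 ran from -0.069 to 0.70, Snai1 from -0.15 to 0.34 and Zeb2 from -0.53 to 0.030. In the PD0325901 interaction, Snai2 ran from -0.065 to 0.73, Zeb1 from -0.15 to 0.75, Zeb2 from -0.095 to 0.46 and Runx2 from -0.18 to 0.42. The cause of these shifts was not tested.

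Scaling reversed changes near 0 of factors that were not called. With quantile normalization, Runx2 was at -0.027 at day 5, Twist2 at -0.0094, Snai1 at -0.0022 and Zeb2 at -0.10 in the long-term KO against untreated cells, and Zeb2 at -0.025 in the PD0325901 interaction. With median-ratio scaling, Twist2 was at -0.017 and Zeb2 at -0.031 in the long-term KO. Quantile normalization also moved the median of all genes from 0.10 to -0.01 with TSA and from 0.10 to -0.02 in the PD0325901 interaction. Among called factors, Twist2 in the long-term KO against day 5 lost its call with median-ratio scaling (0.16, limma adjusted p 0.101), quantile normalization (0.18, limma adjusted p 0.0736) and no filter (0.20, limma adjusted p 0.0566). At day 6 Zeb1 lost it with no filter (-1.10, limma adjusted p 0.0715) and Runx1 with quantile normalization (-0.53, limma adjusted p 0.108). Zeb2 gained a call with TSA under median-ratio scaling (-0.59, limma adjusted p 0.0498) and quantile normalization (-0.86, limma adjusted p 0.00553), and Snai2 at day 5 under quantile normalization (-0.35, limma adjusted p 0.0472). Over all single changes of the factors, leaving out a library left 473 as they were, made 13 calls and lost 30, and reversed 42, and the other settings left 866, made 11, lost 10 and reversed 7.

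Replicate numbers were not taken as pairs in the fit, and the labels do not say that they are pairs. Deviations of libraries with the same number correlated at -0.036 to 0.118 over 9 distinct values in total RNA, -0.068 to 0.032 over 6 in the siRNA experiment and -0.024 to 0.253 over 10 in the inhibitor experiment, with 1, 0 and 3 of these over 0.1. In groups of 2 the libraries mirror each other, so both numbers give the same value. The 3 are all those among PD0325901, day 6 and 4OHT + PD0325901 (0.206 to 0.253), so these 3 groups share a deviation by number, and the counts with the block bear on them. With the replicate block the counts of factors called were 4 at day 5 (Runx1 added, 0.16, limma adjusted p 0.0221), 5 in the long-term KO against untreated cells, 7 against day 5 (Twist2 lost, 0.20, limma adjusted p 0.0678), 1 with siDnmt1, 2 in 4OHT + siCtrl, 0 with 4OHT + siDnmt1, 3 at day 6, 4 with TSA (Zeb2 added, -0.60, limma adjusted p 0.0323), 1 with PD0325901, 2 with 4OHT + PD0325901 and 0 for both interactions in limma.

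Calls over all genes differed by more than 1.5 times as follows. With the 2-fold minimum they were 307 instead of 3353 at day 5, 1279 instead of 6095 and 1152 instead of 5965 in the long-term KO, 513 instead of 846 with siDnmt1, 650 instead of 1466 in 4OHT + siCtrl, 1266 instead of 2846 at day 6, 3666 instead of 6382 with TSA, 826 instead of 1569 with PD0325901 and 433 instead of 798 with 4OHT + PD0325901. With only the groups compared they were 3741 with siDnmt1, 192 in 4OHT + siCtrl, 28 instead of 218 with 4OHT + siDnmt1 and 103 with 4OHT + PD0325901. With the replicate block they were 525 with siDnmt1, 86 with 4OHT + siDnmt1 and 13 instead of 21 for the siDnmt1 interaction. With the filter of 5 FPKM the same 3 counts were 563, 114 and 12, and for that interaction 37 with a pseudocount of 1 and 50 with no filter. Without 1 library, calls over all genes ran from 74 to 109 with siDnmt1, 103 to 2959 in 4OHT + siCtrl, 71 to 2410 with 4OHT + siDnmt1, 9 to 722 for the siDnmt1 interaction, 849 to 1844 at day 6, 4209 to 4887 with TSA, 377 to 1308 with PD0325901, 344 to 624 with 4OHT + PD0325901 and 32 to 183 instead of 83 for the PD0325901 interaction. Median-ratio scaling moved the share of higher among called genes from 39.1% to 53.3% with siDnmt1, from 52.6% to 40.1% in 4OHT + siCtrl and from 71.1% to 58.6% in the PD0325901 interaction, and quantile normalization moved it from 61.9% to 49.4% with 4OHT + PD0325901.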

Other observations

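The library labelled 4OHT + siCtrl replicate 2 held more RNA of keratins and a claudin than replicate 1, with Krt8 at 6.97 against 0.215 FPKM, Krt18 at 3.67 against 0.336, Krt19 at 71.1 against 15.3 and Cldn3 at 4.42 against 0.380. The same library had less Twist1 (14.0 against 28.4 FPKM), Snai2 (7.08 against 17.2) and Zeb2 (3.84 against 9.72) than replicate 1. Whether it was given the treatment of its label was not tested.

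These values have limits. The line is 1 clone, groups hold 2 or 3 libraries, and none of these libraries comes from cells given 4OHT without the conditional allele, so effects of 4OHT itself cannot be told apart from those of losing Setdb1. RNA was measured, not protein, binding or chromatin. The siRNA comparisons with 4OHT + siCtrl rest on 2 unlike libraries. The calls of factors in the siRNA and inhibitor experiments each depended on single libraries, except Twist1 at day 6, Prrx1 with TSA and Runx1 in both comparisons with PD0325901.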
